A study of Homo sapiens with 48 samples.

Results

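The genes described here are 48 genes of DNA replication origins and forks, followed in 2 human prostate cancer cell lines as the oxygen level of the culture was lowered. A gene belonged to the set when a probe on the array carried its symbol or its older symbol. Older symbols are kept as the array gives them: CDC45L is CDC45, and ORC1L, ORC2L, ORC3L, ORC5L and ORC6L are ORC1, ORC2, ORC3, ORC5 and ORC6. The set had 69 probes, and 47 of the 48 members were among the 16438 gene symbols tested. CLSPN, the gene of the checkpoint adaptor claspin, had a single probe that was detected on 1 of 48 arrays, so it could not be followed. Each of the other members is represented by its brightest probe. 22Rv1 was established from a relapsed xenograft of a human prostate tumour and PC-3 from a bone metastasis, and each is 1 established line. Exponentially growing cells in RPMI-1640 medium with serum were held for 24 h at 37 °C in a hypoxia chamber at 1 of 6 O2 levels, 0% or 0.2% at the severe end, then 0.5% and 1%, with 2% and 5% the mildest. Each level had its own normoxia control in 95% air. Every line, level and condition had 2 replicates, which made 24 groups and 48 arrays.

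Values are log2 bead intensities after background correction and quantile normalization, and a change is the log2 difference, hypoxia minus the normoxia control of the same level, with the standard error (SE) of the limma fit. A gene is said to have fallen or risen where the p-value, adjusted over all 16438 genes by the Benjamini-Hochberg method, was under 0.05. Shares of all genes are at this adjusted threshold, and counts of members at an unadjusted p under 0.05 are given without such a share. A mean change is the average of the 6 levels and sets 12 hypoxia arrays against 12 normoxia arrays, while a single level sets 2 against 2. No label says whether replicates came from separate cultures, and the p-values may therefore rest on technical spread. A probe was called detected at a detection p under 0.01, which 13750 to 16494 probes per array reached. The deposited tables disagree on 2 arrays, both from replicate 2 of 22Rv1 at 0.2% O2 (hypoxia and its control), which carry exchanged labels in 1 of the tables. The values below follow the intensity table. Member counts for the mean change, the 0.2% level, the trend over levels and the line difference are given without these arrays too. Array ranges, pair counts and changes of single genes in 22Rv1 are given as labelled there alone. Were the labels exchanged, no statement below that hypoxia was lower in all 12 pairs of 22Rv1, or never overlapped normoxia there, would hold. KLK2, a kallikrein gene of prostate epithelium, was detected on 24 of 24 arrays of 22Rv1 and on 0 of 24 of PC-3. KLK3, another kallikrein gene, was detected on 0 of 48 arrays. The hypoxia-responsive gene ADM rose by 4.25 ± 0.15 in 22Rv1 and by 2.04 ± 0.15 in PC-3 (SE). VEGFA, SLC2A1, BNIP3 and NDRG1, looked up with it, rose in both lines too. CA9, also looked up, was detected on 0 of 24 arrays of 22Rv1 and on 5 of 24 of PC-3. These are bulk samples, in which fewer cells in S phase and less RNA per cell cannot be told apart.

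Replication starts where the origin recognition complex, CDC6 and CDT1 load the MCM2 to MCM7 ring onto DNA, a step called licensing that geminin (GMNN) blocks outside its proper phase. The CDC7 and DBF4 kinase then helps CDC45 and the GINS proteins to join the ring and form the active CMG helicase. Primase and the polymerases alpha, delta and epsilon copy the strands, held by the PCNA clamp that the RFC complex loads. Most of these genes are transcribed as cells approach S phase, and E2F factors are known activators of many of them.

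Promoter sequences are shown for 5 members with large mean decreases in 22Rv1. They do not represent the set: all but CHAF1B carry the E2F letters defined below, where 50% of the members with a promoter do. Whether the motif bears on the changes was not tested. The sequences are from RefSeq (GRCh38.p14) and run from 250 bases before to 50 after an annotated start. Of the 48 members, 42 had 1 or more promoters in the table. The table lacks MCM4, MCM5, GINS4, POLD3, RPA2 and RPA3. The E2F motif was searched on both strands as TTTCGCGC, TTTGGCGC, TTTCCCGC and TTTGCCGC, with overlapping matches merged. Capitals mark these letters in the lines below.
POLE2, chr14:49688165-49688464, minus strand: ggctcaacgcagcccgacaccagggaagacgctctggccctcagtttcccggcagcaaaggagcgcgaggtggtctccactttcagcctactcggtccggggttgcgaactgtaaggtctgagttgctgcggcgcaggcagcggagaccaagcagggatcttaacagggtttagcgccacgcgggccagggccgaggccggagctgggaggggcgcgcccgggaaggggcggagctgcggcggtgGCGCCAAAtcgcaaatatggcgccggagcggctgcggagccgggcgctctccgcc
MCM6, chr2:135876394-135876693, minus strand: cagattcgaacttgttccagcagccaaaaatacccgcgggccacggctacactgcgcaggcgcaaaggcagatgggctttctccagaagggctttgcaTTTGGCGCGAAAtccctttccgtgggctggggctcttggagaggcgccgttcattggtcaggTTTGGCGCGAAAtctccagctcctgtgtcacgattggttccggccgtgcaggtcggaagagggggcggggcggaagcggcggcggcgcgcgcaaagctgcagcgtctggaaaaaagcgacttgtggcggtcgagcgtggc
PCNA, chr20:5126573-5126872, minus strand: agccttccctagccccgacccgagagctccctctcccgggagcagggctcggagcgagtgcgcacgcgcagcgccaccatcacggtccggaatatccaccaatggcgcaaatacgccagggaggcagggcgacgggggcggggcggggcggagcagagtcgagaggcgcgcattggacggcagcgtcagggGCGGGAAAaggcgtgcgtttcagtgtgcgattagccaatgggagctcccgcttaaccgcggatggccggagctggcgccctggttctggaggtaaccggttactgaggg
TIPIN, chr15:66356636-66356935, minus strand: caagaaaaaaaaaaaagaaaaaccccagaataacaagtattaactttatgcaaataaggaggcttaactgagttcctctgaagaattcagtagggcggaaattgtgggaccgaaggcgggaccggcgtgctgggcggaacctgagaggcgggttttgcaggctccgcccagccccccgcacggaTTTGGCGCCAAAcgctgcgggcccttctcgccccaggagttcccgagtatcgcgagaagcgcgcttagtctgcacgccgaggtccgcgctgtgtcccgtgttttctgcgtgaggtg
CHAF1B, chr21:36385142-36385441, plus strand: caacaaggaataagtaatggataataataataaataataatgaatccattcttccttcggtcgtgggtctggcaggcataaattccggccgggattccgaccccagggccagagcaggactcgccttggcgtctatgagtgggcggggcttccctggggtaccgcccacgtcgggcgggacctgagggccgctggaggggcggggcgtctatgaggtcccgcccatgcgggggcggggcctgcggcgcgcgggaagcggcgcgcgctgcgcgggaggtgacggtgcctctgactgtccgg
POLE2, the gene with the largest mean decrease in 22Rv1, has 1 match that begins 5 bases before its start. MCM6 has the palindrome-like run TTTGGCGCGAAA at 2 places, beginning 152 and 90 bases before its start. PCNA has 1 match 59 bases before the first of its 2 annotated starts, and TIPIN has a run 66 bases before the second of its 2. CHAF1B has no match in this window and is shown because its decrease was among the largest of the set. MCM10 and CHAF1A, with larger mean decreases in 22Rv1 than MCM6, have no match either and are not shown. The letters were in at least 1 promoter of 21 of the 42 members (50%) in 567 of the 8747 tested symbols with a promoter there (6.5%), and in 1090 of 27305 genes of the table (4.0%). Counted by promoter, 38.9% of 54 member promoters held them, against 4.7% of 12854 promoters of tested symbols and 3.3% of all 35116 promoters. The cell-cycle CHR letters TTTGAA and TTCGAA, searched on both strands, were in 5.6% of member promoters, 11.9% of promoters of tested symbols and 16.4% of all promoters. In 22Rv1 the median mean change was -0.95 over the 20 tested members with the E2F letters and -0.72 over the 21 without. In PC-3 the medians were -0.24 and -0.16 for the same members. The ranges of both sets overlapped widely in 22Rv1, -1.59 to -0.07 with the letters and -1.26 to 0.16 without. The -0.07 end is GINS1, detected on 4 arrays and too dim for a size. The 0.16 end is ORC6L, whose probes disagreed, as given below.

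In 22Rv1 nearly the whole replication set was lower in hypoxia. On the mean over the 6 levels 42 of the 47 members fell and ORC6L rose, where 22.8% of all genes tested fell and 19.8% rose. The median member changed by -0.83, against -0.01 over all genes. Quantile normalization gives every array the same distribution of values, which by itself keeps the median over all genes near 0. The count of 42 was the same without the 2 doubted arrays (all genes 23.2%) and with their labels exchanged (20.2%). POLE2 had the most negative mean change of all 16438 genes in 22Rv1, and 17 members were among the 50 most negative. In PC-3 the same direction was seen at a smaller size: 20 members fell and 0 rose, where 13.3% of all genes fell and 10.7% rose. At an unadjusted p under 0.05, 25 members were lower and 0 higher in PC-3. With each hypoxia array and its same-numbered control as a block (the replicate block), 25 members fell in PC-3, where 18% of all genes fell. The median member changed by -0.18 in PC-3, against -0.01 over all genes. A mean decrease of at least 1 on the log2 scale was reached by 15 members in 22Rv1 and by 0 in PC-3. The smallest of the 15, that of GMNN, ranked 41 from the most negative of all 16438 genes in 22Rv1. Hypoxia was below normoxia in all 12 same-numbered pairs for 31 members in 22Rv1 and for 14 in PC-3. Pairs were not counted over all genes, so how unusual these counts are cannot be said.

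**Figure D1:**
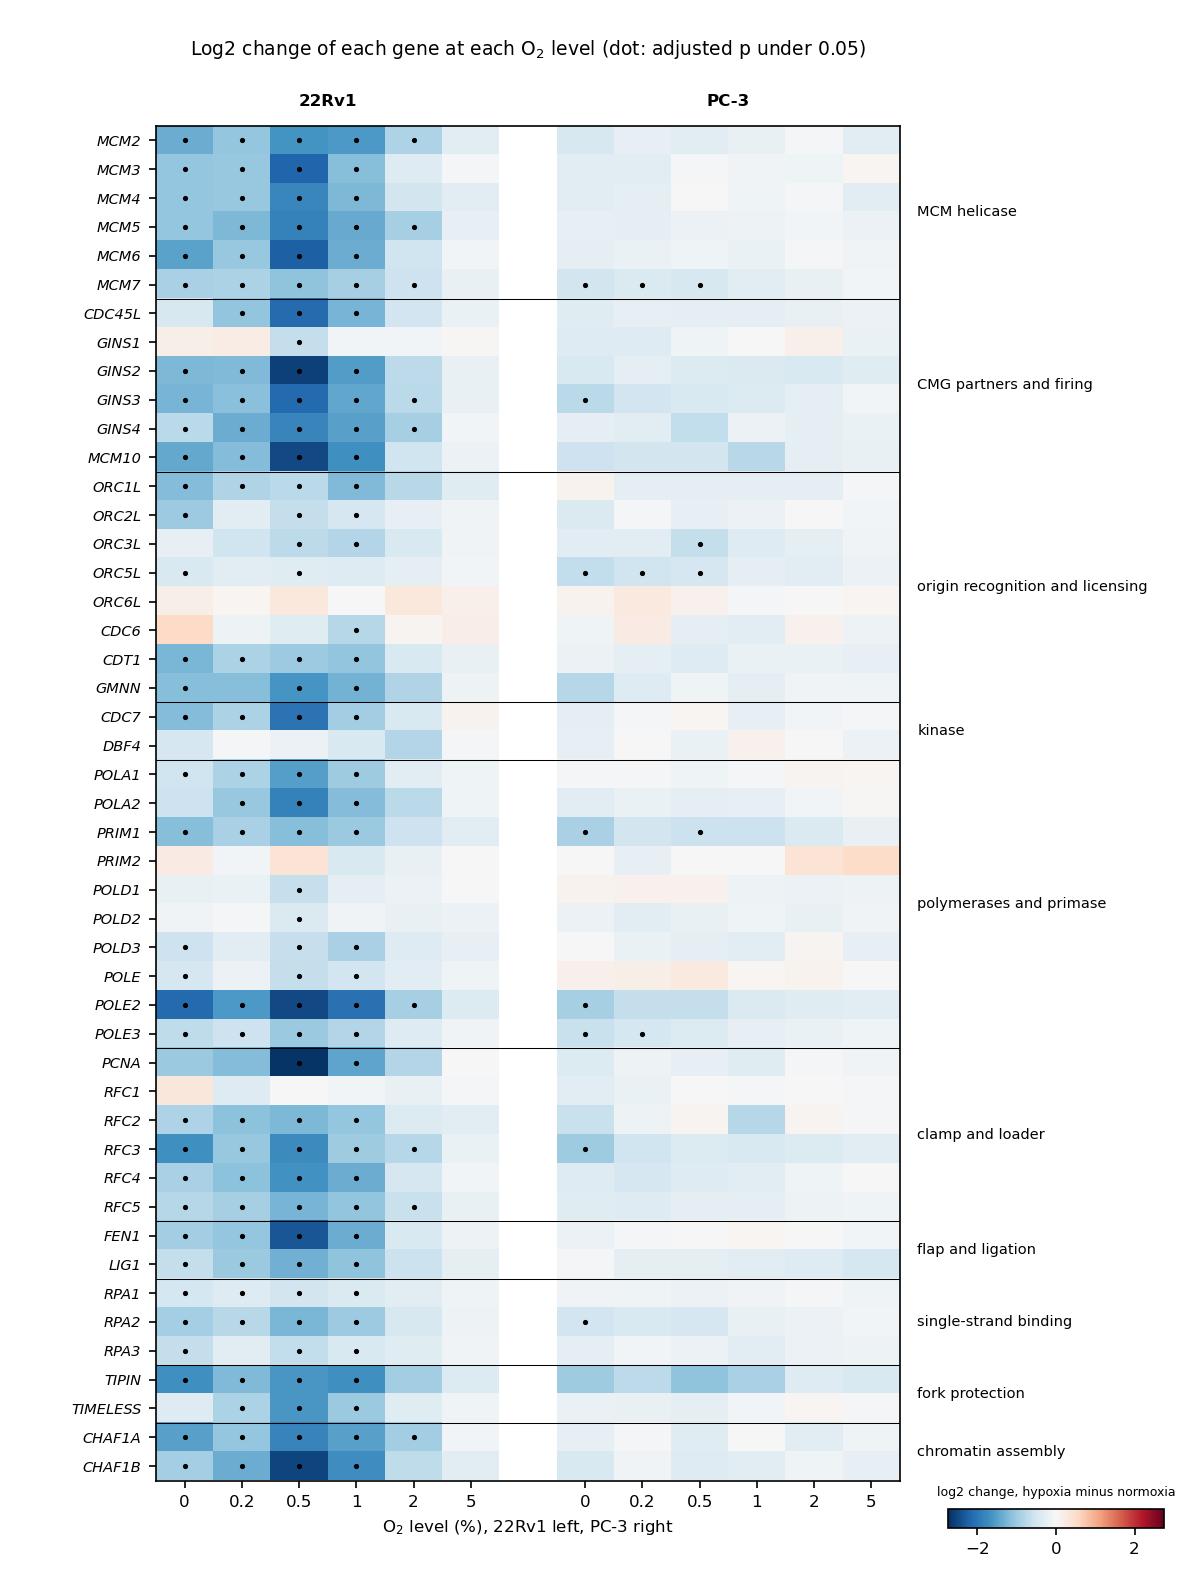
Heatmap of the log2 change (hypoxia minus its own normoxia control) of the 47 tested genes, in rows grouped by role, at each O2 level (% O2, columns), with 22Rv1 on the left and PC-3 on the right; a dot marks an adjusted p under 0.05. The 22Rv1 columns from 0 to 1% O2 are blue for most rows and darkest at 0.5%, while few PC-3 cells carry a dot.

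All 6 subunits of the MCM helicase fell in 22Rv1, with mean changes between -1.13 and -0.76. MCM2 ranged from 8.09 to 10.14 (median 8.58) on the 12 hypoxia arrays of 22Rv1, against 9.46 to 10.47 (median 9.89) on the 12 normoxia arrays. Only the 2 hypoxia arrays at 5% O2 reached into the normoxia range, and within pairs hypoxia was lower in 12 of 12. The mean change of MCM2 was -1.13 ± 0.08 (SE, adjusted p = 1.93e-13), a 2.19-fold decrease. In PC-3, MCM2 lay between 7.67 and 8.11 (median 8.02) in hypoxia, against 7.94 to 8.36 (median 8.18) in normoxia. These ranges overlapped, and the change was -0.25 ± 0.08 (adjusted p = 0.0179). MCM5, MCM6, MCM4 and MCM3 fell by 1.11, 1.12, 0.99 and 0.98 in 22Rv1. In PC-3 these 4 subunits had changes of -0.17, -0.15, -0.17 and -0.14, none past the threshold.

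MCM7 was the MCM subunit with the largest change in PC-3. Its PC-3 values were 11.38 to 11.83 (median 11.68) in hypoxia, against 11.79 to 12.10 (median 11.97) in normoxia. In 22Rv1 they were 11.23 to 12.38 (median 11.61) in hypoxia, against 12.37 to 12.60 (median 12.47) in normoxia. Hypoxia and normoxia met only at the edges of these ranges in both lines. MCM7 fell by 0.76 ± 0.05 in 22Rv1 (SE, adjusted p = 1.76e-14) and by 0.33 ± 0.05 in PC-3 (adjusted p = 3.86e-06). Its probes did not all behave alike, as given below.

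Among the partners that turn the MCM ring into the CMG helicase, CDC45L, GINS2, GINS3, GINS4 and the firing factor MCM10 fell in 22Rv1. GINS1 was detected on 4 of 48 arrays, and no size is given for its means. GINS2, a subunit of the GINS tetramer, ranged from 7.20 to 10.61 (median 9.55) in 22Rv1 hypoxia, against 10.26 to 10.89 (median 10.62) in normoxia. In PC-3 it ranged from 8.79 to 9.24 (median 9.07) in hypoxia, against 9.18 to 9.63 (median 9.40) in normoxia. Hypoxia was the lower array of all 12 pairs in both lines, by far the more in 22Rv1. The mean change of GINS2 was -1.25 ± 0.11 in 22Rv1 (SE, adjusted p = 7.58e-11) and -0.37 ± 0.11 in PC-3 (adjusted p = 0.0155).

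MCM10, which binds the helicase as it fires, was between 5.60 and 8.51 (median 7.01) in 22Rv1 hypoxia, against 8.31 to 8.65 (median 8.53) in normoxia. It was between 6.66 and 7.18 (median 6.94) in PC-3 hypoxia, against 7.06 to 7.83 (median 7.37) in normoxia. MCM10 fell 2.37-fold in 22Rv1 (-1.24 ± 0.12, SE, adjusted p = 1.43e-10) and 1.39-fold in PC-3 (-0.47 ± 0.12, adjusted p = 0.00234). CDC45L fell by 0.94 ± 0.09 in 22Rv1 (adjusted p = 6.9e-10), and its PC-3 change of -0.24 ± 0.09 missed the threshold (adjusted p = 0.0601). GINS3 fell by 1.16 in 22Rv1 and fell by 0.40 in PC-3. GINS4 fell by 1.07 in 22Rv1 and 0.30 in PC-3, and in 22Rv1 it was not detected on either hypoxia array at 0.5% or at 1% O2. Against the detection floor of those arrays it was at least 2.47-fold lower at 0.5% and at least 2.49-fold lower at 1%.

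The origin recognition and licensing genes were mixed. In 22Rv1 6 of 8 fell and ORC6L rose, with a group median of -0.46, and in PC-3 3 of 8 fell. ORC5L, a subunit of the origin recognition complex, had the largest change of this group in PC-3. It lay between 9.20 and 9.80 (median 9.52) in PC-3 hypoxia, against 9.77 to 10.01 (median 9.91) in normoxia. In 22Rv1 it lay between 9.0 and 9.42 (median 9.14) in hypoxia, against 9.35 to 9.68 (median 9.42) in normoxia. Of the hypoxia arrays, 2 of 22Rv1 and 1 of PC-3 reached into the normoxia range of their line. ORC5L fell by 0.29 ± 0.05 in 22Rv1 (SE, adjusted p = 1.83e-05) and by 0.40 ± 0.05 in PC-3 (adjusted p = 2.81e-07). The difference between the lines, 0.11 ± 0.07, did not pass the test (adjusted p = 0.306).

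GMNN, the inhibitor of relicensing, was between 6.24 and 8.19 (median 7.04) in 22Rv1 hypoxia, against 7.76 to 8.65 (median 8.23) in normoxia. In PC-3 it was between 6.08 and 7.51 (median 7.05) in hypoxia, against 6.91 to 7.86 (median 7.18) in normoxia. GMNN fell 2.05-fold in 22Rv1 (-1.04 ± 0.17, SE, adjusted p = 8.06e-06). Its PC-3 change of -0.29 ± 0.17 did not pass (adjusted p = 0.248), although hypoxia was lower in 10 of 12 pairs. With the replicate block in the fit, GMNN passed in PC-3 too, at the same size. CDT1, which loads the MCM ring, fell by 0.80 in 22Rv1 and by 0.23 in PC-3. ORC1L, ORC2L and ORC3L fell by 0.84, 0.45 and 0.47 in 22Rv1. In PC-3 ORC3L fell by 0.34, and ORC1L and ORC2L had changes of -0.16 and -0.15 that did not pass. CDC6, the licensing ATPase, was detected on 10 of 48 arrays, and no size is given.

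ORC6L was the only member that rose, and the rise depended on the probe. Its brightest probe was between 13.25 and 13.75 (median 13.53) in 22Rv1 hypoxia, against 13.10 to 13.55 (median 13.37) in normoxia. The PC-3 values lay between 13.20 and 13.57 (median 13.36) in hypoxia, against 13.10 to 13.42 (median 13.32) in normoxia. The arrays of hypoxia and normoxia overlapped in both lines. The change was 0.16 ± 0.05 in 22Rv1 (SE, adjusted p = 0.00532) and 0.08 ± 0.05 in PC-3 (adjusted p = 0.249). A second ORC6L probe, detected on all 48 arrays as well, fell by 0.97 ± 0.09 in 22Rv1 (adjusted p = 3.21e-10) and changed by -0.21 ± 0.09 in PC-3 (adjusted p = 0.118). The 2 probes thus gave opposite directions in both lines, and only the changes in 22Rv1 passed.

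Of 15 members with more than 1 detected probe, the probes differed by over 0.3 in 22Rv1 in 3, which were ORC6L, MCM7 and RFC3. In the other 12 the largest spread between probes was 0.25. The second MCM7 probe fell by 1.13 ± 0.15 in 22Rv1, and another, detected on 9 arrays, changed by -0.02 ± 0.08 (SE). For RFC3 the second probe fell by 1.05 ± 0.12 in 22Rv1 and by 0.45 ± 0.12 in PC-3, close to the brightest. The third RFC3 probe fell by 0.33 ± 0.10 in 22Rv1 and had a change of 0.25 ± 0.10 in PC-3 that did not pass (adjusted p = 0.0731). Which transcripts the probes match was not tested.

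**Figure D2:**
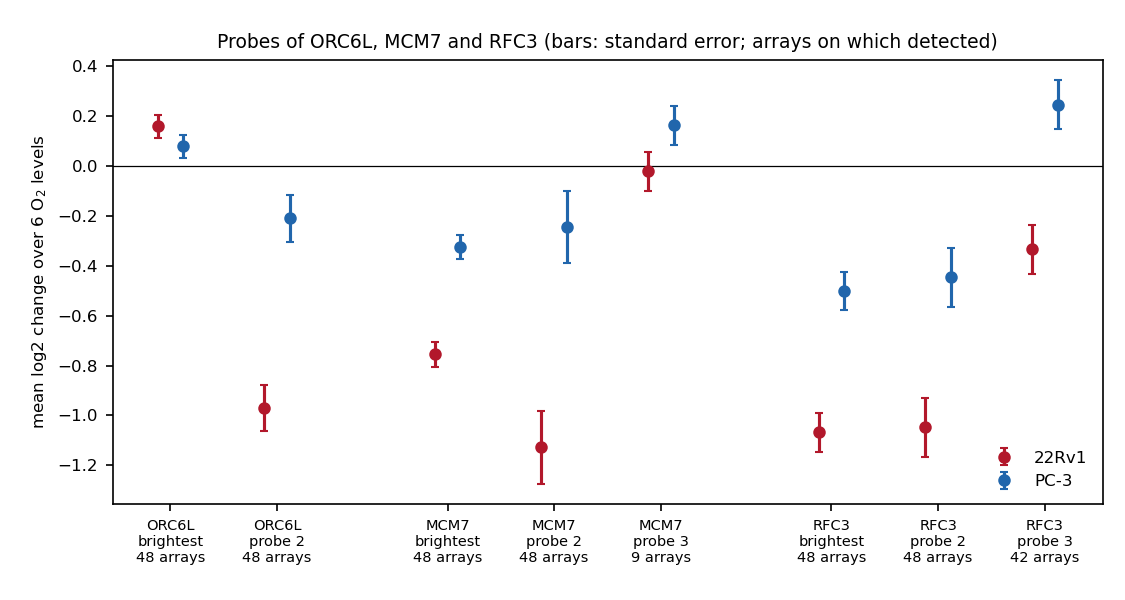
Mean log2 change over the 6 O2 levels (vertical axis, with SE) for each detected probe of ORC6L, MCM7 and RFC3, in 22Rv1 (red) and PC-3 (blue); the number of arrays on which a probe was detected stands below it. The brightest ORC6L probe lies above 0 in both lines and the second lies at -0.97 in 22Rv1.

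Of the origin-firing kinase, the catalytic subunit gene CDC7 fell in 22Rv1. CDC7 was between 4.93 and 7.5 (median 6.39) in 22Rv1 hypoxia, against 7.23 to 7.52 (median 7.29) in normoxia. On the PC-3 arrays it was between 6.53 and 7.42 (median 7.02) in hypoxia, against 6.97 to 7.39 (median 7.11) in normoxia. The 22Rv1 hypoxia arrays fell below normoxia in 11 of 12 pairs, and the PC-3 arrays in 7 of 12. Its change was -0.90 ± 0.11 in 22Rv1 (SE, adjusted p = 2.1e-08) and -0.09 ± 0.11 in PC-3 (adjusted p = 0.624). DBF4, the regulatory subunit, was detected on 9 of 48 arrays, and no size is given, although it is counted among the 42.

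The polymerase and primase genes fell in 22Rv1 for 9 of 10, and in PC-3 for 4 of 10. POLE2, the second subunit of the leading-strand polymerase epsilon, was between 5.54 and 8.07 (median 6.62) in 22Rv1 hypoxia, against 8.30 to 8.73 (median 8.63) in normoxia. All 12 hypoxia arrays were below every normoxia array. In PC-3 POLE2 was between 8.53 and 9.37 (median 9.0) in hypoxia, against 9.30 to 9.77 (median 9.48) in normoxia, with hypoxia lower in 12 of 12 pairs. It fell 3.0-fold in 22Rv1 (-1.59 ± 0.10, SE, adjusted p = 3.41e-14) and 1.46-fold in PC-3 (-0.54 ± 0.10, adjusted p = 0.00016).

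The catalytic subunit gene of the same polymerase had smaller changes. POLE was between 7.45 and 8.36 (median 7.81) in 22Rv1 hypoxia, against 7.93 to 8.65 (median 8.20) in normoxia. In PC-3 it was between 6.81 and 7.22 (median 7.08) in hypoxia, against 6.66 to 7.13 (median 6.92) in normoxia. POLE fell by 0.37 ± 0.07 in 22Rv1 (SE, adjusted p = 1.97e-05), and its PC-3 change of 0.12 ± 0.07 did not pass (adjusted p = 0.224). Hypoxia was the lower array in 10 of 12 pairs in 22Rv1 and in 2 of 12 in PC-3. POLE3, a small histone-fold subunit, fell by 0.59 in 22Rv1 and 0.33 in PC-3.

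The primase catalytic subunit gene PRIM1 fell by 0.85 in 22Rv1 and by 0.54 in PC-3. Its partner PRIM2 changed by -0.02 ± 0.15 in 22Rv1 and 0.11 ± 0.15 in PC-3, neither past the threshold. POLA1 and POLA2, of the priming polymerase alpha, fell by 0.72 and 0.92 in 22Rv1 and changed by -0.02 and -0.17 in PC-3 without passing. The polymerase delta genes POLD1, POLD2 and POLD3 fell by 0.24, 0.17 and 0.50 in 22Rv1. In PC-3 POLD2 fell by 0.18, and POLD1 and POLD3 had changes of -0.02 and -0.15 that did not pass. Within this role group the 22Rv1 changes spanned -1.59 to -0.02.

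PCNA, the sliding clamp, had the largest SE of the members. It was between 6.19 and 10.32 (median 9.10) in 22Rv1 hypoxia, against 9.72 to 10.45 (median 10.19) in normoxia. The PC-3 values lay between 8.37 and 9.38 (median 8.99) in hypoxia, against 8.69 to 9.67 (median 9.09) in normoxia. PCNA fell 2.29-fold in 22Rv1 (-1.19 ± 0.20, SE, adjusted p = 7.84e-06) and changed by -0.20 ± 0.20 in PC-3 (adjusted p = 0.549). At 0.5% O2 its 22Rv1 replicates were far apart, 6.19 and 8.56 in hypoxia, against 9.72 and 10.43 in normoxia.

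Of the clamp loader genes, RFC2, RFC3, RFC4 and RFC5 fell in 22Rv1 by 0.83, 1.07, 0.93 and 0.81. RFC1, the large subunit, had changes of -0.06 ± 0.06 (22Rv1) and -0.10 ± 0.06 (PC-3), with no call. RFC3 was between 6.16 and 7.97 (median 7.14) in 22Rv1 hypoxia, against 8.02 to 8.38 (median 8.10) in normoxia. On the PC-3 arrays it was between 6.95 and 7.81 (median 7.62) in hypoxia, against 7.83 to 8.18 (median 8.06) in normoxia. RFC3 was the single member whose 12 hypoxia arrays lay below every normoxia array in both lines, which was not counted over all genes. It fell 2.10-fold in 22Rv1 (-1.07 ± 0.08, SE, adjusted p = 2.81e-13) and 1.41-fold in PC-3 (-0.50 ± 0.08, adjusted p = 5.88e-06). RFC4 and RFC5 fell in PC-3 as well, by 0.27 and 0.23, and the RFC2 change of -0.24 did not pass.

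The flap endonuclease gene FEN1, which trims Okazaki fragments, fell in 22Rv1 and did not pass in PC-3. It was between 8.03 and 10.96 (median 10.00) in 22Rv1 hypoxia, against 10.81 to 11.06 (median 10.92) in normoxia. In PC-3 it was between 10.60 and 10.88 (median 10.77) in hypoxia, against 10.73 to 10.89 (median 10.80) in normoxia, so that the ranges nearly coincided. FEN1 fell by 1.05 ± 0.10 in 22Rv1 (SE, adjusted p = 1.36e-10) and changed by -0.05 ± 0.10 in PC-3 (adjusted p = 0.826). LIG1, the ligase that seals the fragments, was between 7.04 and 8.32 (median 7.68) in 22Rv1 hypoxia, against 8.08 to 8.79 (median 8.5) in normoxia. In PC-3 LIG1 was between 5.97 and 6.61 (median 6.36) in hypoxia, against 6.25 to 7.02 (median 6.67) in normoxia. It fell by 0.82 ± 0.085 in 22Rv1 (adjusted p = 1.2e-09) and by 0.28 ± 0.085 in PC-3 (adjusted p = 0.0135).

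All 3 genes of the single-strand binding protein RPA fell in 22Rv1. RPA2 was between 8.89 and 10.33 (median 9.66) in 22Rv1 hypoxia, against 10.30 to 10.80 (median 10.41) in normoxia. The PC-3 values lay between 10.00 and 10.52 (median 10.24) in hypoxia, against 10.44 to 10.74 (median 10.53) in normoxia. Only the mildest hypoxia arrays reached into the normoxia range. RPA2 fell by 0.76 ± 0.06 in 22Rv1 (SE, adjusted p = 9.83e-13) and by 0.31 ± 0.06 in PC-3 (adjusted p = 0.000107). RPA1 and RPA3 fell by 0.36 and 0.42 in 22Rv1, and in PC-3 RPA3 fell by 0.18 while the RPA1 change of -0.10 did not pass.

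TIPIN, which with TIMELESS travels with the fork and steadies it, had the largest mean change of any member in PC-3. It was between 4.77 and 6.36 (median 5.24) in 22Rv1 hypoxia, against 6.29 to 7.35 (median 6.71) in normoxia. On the PC-3 arrays it was between 4.56 and 5.95 (median 5.46) in hypoxia, against 5.81 to 6.67 (median 6.10) in normoxia. Hypoxia was lower in 12 of 12 pairs in each line, and TIPIN was detected on 9 of 12 hypoxia arrays of 22Rv1 and 11 of 12 of PC-3. It fell 2.39-fold in 22Rv1 (-1.25 ± 0.13, SE, adjusted p = 2.46e-09) and 1.68-fold in PC-3 (-0.74 ± 0.13, adjusted p = 7.03e-05). TIMELESS fell by 0.72 ± 0.08 in 22Rv1 and changed by -0.11 ± 0.08 in PC-3 (adjusted p = 0.354).

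CHAF1A and CHAF1B, subunits of the assembly factor that places histones behind the fork, fell in 22Rv1 and did not pass in PC-3. CHAF1B was between 5.37 and 8.13 (median 7.41) in 22Rv1 hypoxia, against 8.28 to 8.53 (median 8.34) in normoxia, with no overlap. In PC-3 it was between 7.23 and 7.75 (median 7.53) in hypoxia, against 7.55 to 8.05 (median 7.82) in normoxia, and lower in 12 of 12 pairs. CHAF1B fell 2.39-fold in 22Rv1 (-1.26 ± 0.10, SE, adjusted p = 3.56e-12), and its PC-3 change was -0.25 ± 0.10 (adjusted p = 0.0622). With the replicate block the PC-3 change of CHAF1B passed at the same size. CHAF1A fell by 1.16 in 22Rv1 and changed by -0.16 in PC-3. At 0.5% O2 it was not detected on either 22Rv1 hypoxia array, at least 3.05-fold below its normoxia control.

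**Figure D3:**
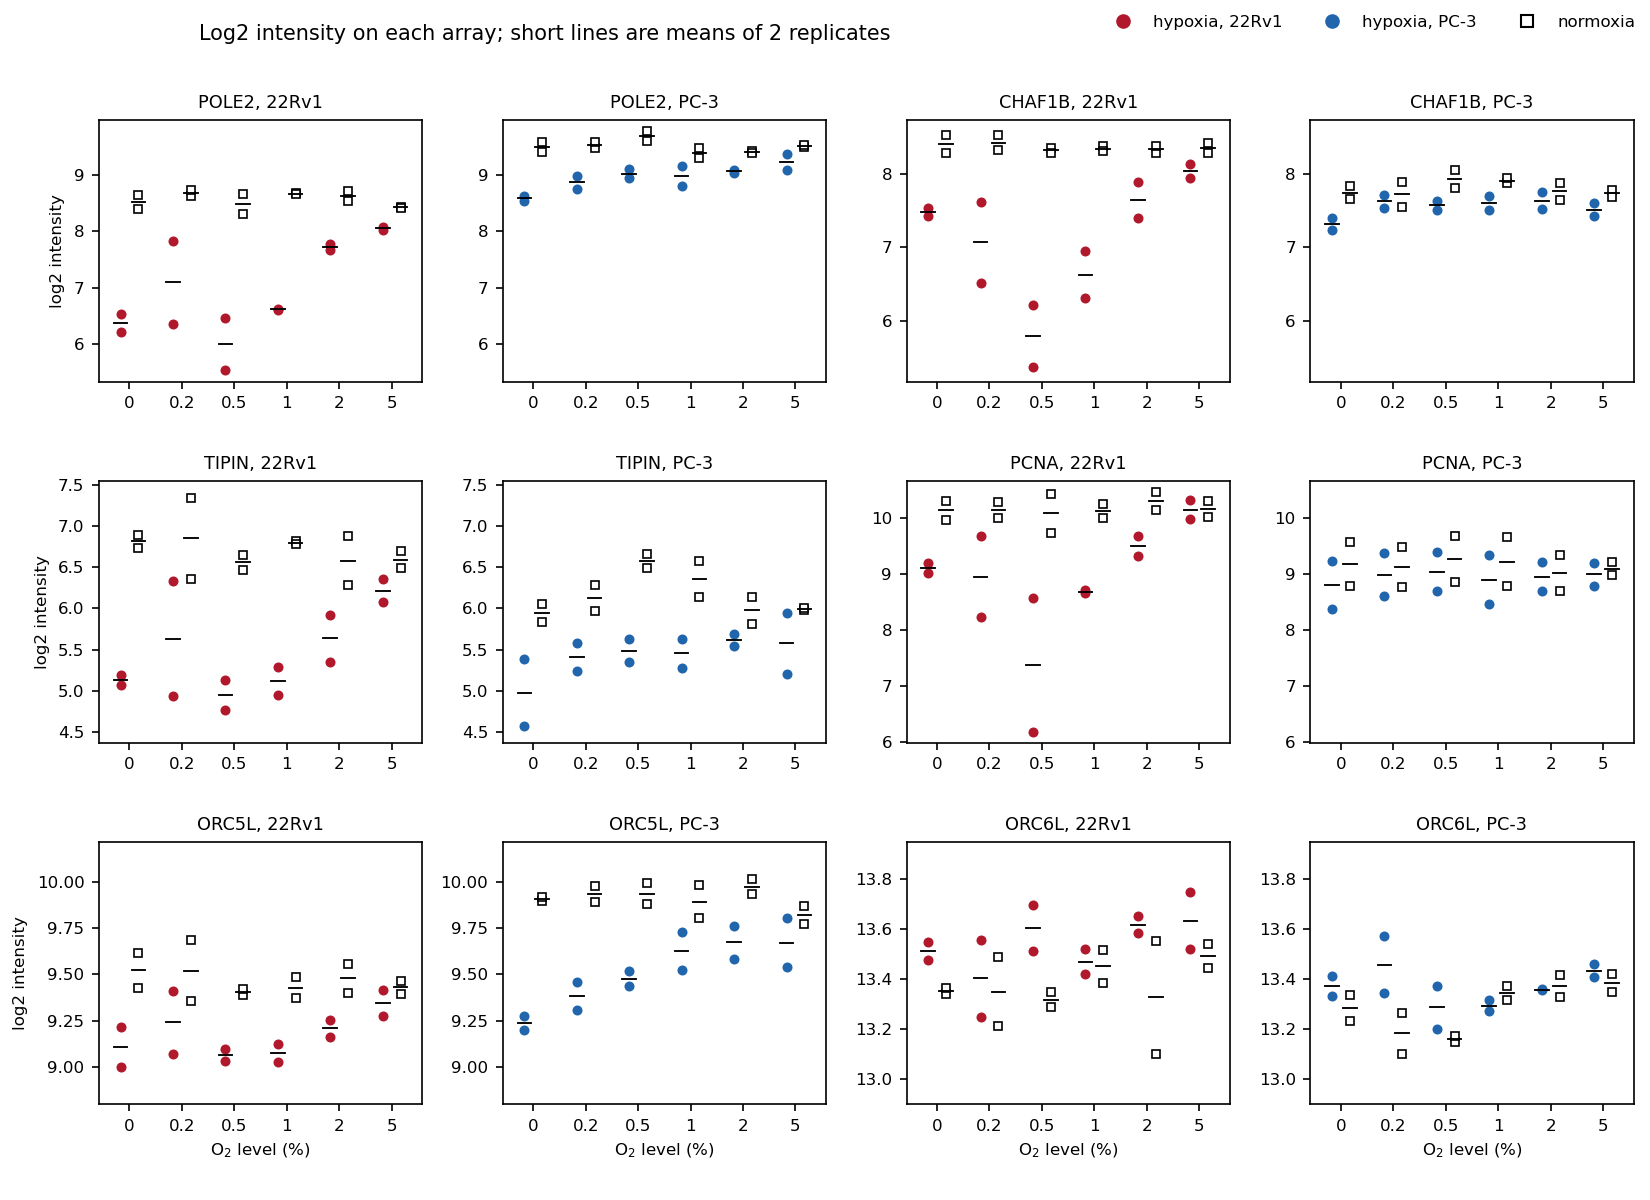
Log2 intensity of POLE2, CHAF1B, TIPIN, PCNA, ORC5L and ORC6L (brightest probes) on each array against the O2 level (%), with hypoxia as filled circles left of its own normoxia control as open squares and short lines at the means of 2 replicates. POLE2 and CHAF1B show no overlap of hypoxia and normoxia in 22Rv1, the replicates of 22Rv1 hypoxia are spread widely at 0.2 and 0.5%, and ORC6L lies slightly higher in most 22Rv1 hypoxia groups.

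The second question was how the decrease depended on the oxygen level. In 22Rv1 it did not deepen steadily toward 0%. At 0% O2 34 members fell, where 15.5% of all genes fell. At 0.2% the count was 31 (all genes 5.18%), at 0.5% it was 42 (15%), and at 1% it was 39 (7.09%). At 2% 9 members fell (1.28%), 25 with the replicate block (all genes 5.09%), and 1 to 4 when 1 of its arrays was left out. At 5% O2 0 members fell or rose (limma, all genes 0.00608% fallen and 0.0852% risen), and 0 had an unadjusted p under 0.05. The medians over the members were -0.88, -0.90, -1.32, -1.06, -0.47 and -0.12 going up the levels (0% first, 5% last). Over all genes the medians stayed between -0.02 and -0.01.

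The 0.5% level held the most negative value of 34 of the 47 members in 22Rv1. The level of the most negative value was not counted over all genes, so whether this is particular to the members cannot be said. In single replicate pairs the member median at 0.5% was -1.48 in replicate 1 and -1.28 in replicate 2. At 0% it was -0.88 in replicate 1 and -0.85 in replicate 2. The 0.2% pairs differed most, with -1.2 in replicate 1 and -0.54 in replicate 2. Replicate 2 at 0.2% is the pair whose labels are exchanged in the other table. Without these 2 arrays 32 members fell at 0.2%, where 6.17% of all genes fell. With the labels exchanged 0 members passed, and 0 of all 16438 genes were lower or higher, against 851 lower and 950 higher as labelled. Without the hypoxia array of replicate 1 at 0.2% 7 members fell.

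**Figure D4:**
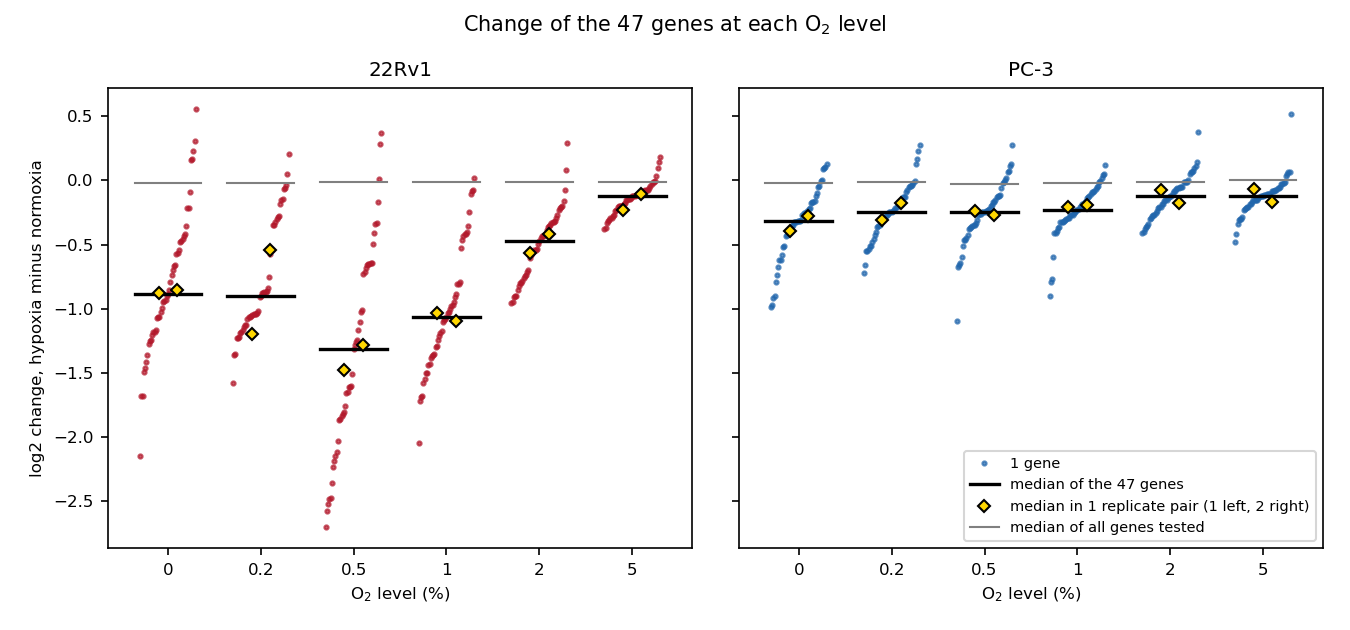
Log2 change (hypoxia minus normoxia, vertical axis) of the 47 genes at each O2 level (%), with 22Rv1 left and PC-3 right; points are genes, the black line is their median, diamonds are the medians within each replicate pair, and the grey line is the median of all genes tested. The 22Rv1 median is most negative at 0.5% (-1.32) and near 0 at 5% (-0.12), and the 2 diamonds at 0.2% lie farthest apart.

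The 0.5% effect was tested directly against the effects at 0% and 0.2% in 22Rv1, and not against that at 1%. Against 0%, 10 members were lower at 0.5% and 0 higher, where 5.16% of all genes were lower and 4.16% higher, a comparison added after the data had been seen. The 10 were MCM3, CDC45L, GINS1, GINS2, GINS4, POLA1, POLA2, FEN1, TIMELESS and CHAF1B. Of these, GINS1 was below background on all 4 arrays at 0% and detected at 0.5% on the 2 normoxia arrays alone, so its call rests on values near the floor, and 9 members remain without it. GINS4 was below background in hypoxia at 0.5%. CDC45L showed the largest difference, -1.69 ± 0.33 (SE, adjusted p = 0.000614). Its 22Rv1 values at 0.5% were 7.68 and 8.90 in hypoxia, against 10.27 and 10.54 in normoxia. At 0% they were 10.30 and 10.09 in hypoxia, against 10.68 and 10.57 in normoxia. CDC45L thus fell by 2.12 ± 0.23 at 0.5%, and its change of -0.43 ± 0.23 at 0% did not pass (adjusted p = 0.175). TIMELESS had a difference of -1.25 ± 0.27 (adjusted p = 0.00219) and CHAF1B one of -1.59 ± 0.35 (adjusted p = 0.00198).

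The same contrast left the licensing group at a median of 0.10, with 0 of 8 members called, while 4 of the 6 CMG partners were lower at 0.5%, or 3 without GINS1. The count of 10 was 19 with the replicate block, where 8.66% of all genes were lower, and 17 without the 0.5% hypoxia array of replicate 2. It was 3 without that of replicate 1, and 5 without either the 0% hypoxia array of replicate 1 or the 0% normoxia array of replicate 2. Against 0.2%, 0 members differed (limma, 0% of all genes), and 24 were lower at an unadjusted p under 0.05. With the block 3 members differed between 0.5 and 0.2%, where 0.0791% of all genes were lower. That count was 19 without the 0.2% hypoxia array of replicate 1 and 17 without the 0.5% hypoxia array of replicate 2.

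POLE2 was deep at every level from 0 to 1% in 22Rv1. Its changes were -2.14 at 0%, -1.58 at 0.2%, -2.47 at 0.5%, -2.05 at 1%, -0.90 at 2% and -0.37 at 5%, each with an SE of 0.26. The first 5 passed the test, and the change at 5% did not (adjusted p = 1). RFC3 fell about as far at 0% (-1.68 ± 0.19) as at 0.5% (-1.76 ± 0.19). TIPIN had -1.68 ± 0.33 at 0% and -1.69 ± 0.33 at 1%. GINS2, MCM10 and PCNA reached -2.57, -2.48 and -2.70 at 0.5%.

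By rank of the level from 5 to 0%, a linear trend was negative and past the threshold for 22 members in 22Rv1, where 6.58% of all genes had a falling trend. The steepest was POLE2 with -0.32 ± 0.06 per step (SE, adjusted p = 0.000314). With the 2 doubted labels exchanged the count was 2 (all genes 3.24%), and with the 2 arrays left out it was 27 (8.07%). In PC-3 0 members passed the trend test (limma, all genes 0.706%), 7 were lower at an unadjusted p under 0.05, and 3 passed with the replicate block (all genes 2.79%).

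In PC-3 the single levels gave few calls in the fit over both lines, which share its estimate of the spread. Fitting PC-3 alone gave more calls from 0 to 1%, as listed at the end. At 0% O2 8 members fell, where 4.51% of all genes fell, and 13 did with the replicate block, where 8.81% of all genes fell. The 8 without the block were MCM7, GINS3, ORC5L, PRIM1, POLE2, POLE3, RFC3 and RPA2. At 0.2% 3 fell (all genes 2.03%), with 10 under the block (5.56%). At 0.5% 4 fell (1.66%), with 8 under the block (5.09%). At 1, 2 and 5% 0 members passed (limma), where 0.237%, 0% and 0% of all genes fell. At an unadjusted p under 0.05, for which no share over all genes is given, 8, 2 and 1 members were lower there. With the block 4 members fell at 1%, where 1.3% of all genes did. The counts at 0, 0.2 and 0.5% ranged from 4 to 6, 0 to 2 and 0 to 2 when 1 array was left out, and at 0.5% the count was 0 without the hypoxia array of replicate 1 or either normoxia array.

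The most negative PC-3 changes at a single level were those of TIPIN at 0.5%, RFC3 at 0%, TIPIN at 0% and POLE2 at 0%. RFC3 was 6.95 and 7.26 in hypoxia at 0%, against 8.06 and 8.12 in normoxia, a change of -0.98 ± 0.19 (SE, adjusted p = 0.00055). PRIM1, with a smaller change, was 7.49 and 7.86 in hypoxia at 0%, against 8.5 and 8.64 in normoxia, a change of -0.90 ± 0.17 (adjusted p = 0.000553). TIPIN was 5.35 and 5.62 in hypoxia at 0.5%, against 6.67 and 6.50 in normoxia, a change of -1.10 ± 0.33 that just missed the threshold (adjusted p = 0.0518). The most negative change of a member was at 0% for 23 of the 47 in PC-3, which again was not counted over all genes. The PC-3 member medians were -0.32, -0.25, -0.24, -0.23, -0.12 and -0.12 going up the levels (0% first, 5% last).

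The third question was whether the lines differed. The difference of the mean change, 22Rv1 minus PC-3, was negative and past the threshold for 37 of the 47 members and positive for 0, where 11.5% of all genes had a negative and 11.2% a positive difference. No member was higher at an unadjusted p under 0.05. The median difference was -0.58. The count was 38 without the 2 doubted arrays (all genes 13%) and 28 with their labels exchanged (8.43%). POLE2 had the largest, -1.04 ± 0.15 (SE, adjusted p = 2.58e-06), followed by FEN1 with -1.0 ± 0.14 (adjusted p = 1.57e-06), CHAF1B with -1.0 ± 0.14 (adjusted p = 2.25e-06) and CHAF1A with -0.99 ± 0.14 (adjusted p = 1.58e-06). All 6 MCM genes and all 3 RPA genes were among the 37. For TIPIN the difference of -0.51 ± 0.19 was near the threshold (adjusted p = 0.0491), and it was lost in 33 of 48 fits that left out 1 array.

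The members outside the 37 were GINS1, ORC3L, ORC5L, ORC6L, CDC6, DBF4, PRIM2, POLD1, POLD2 and RFC1. POLD2 changed by almost the same amount in the lines, with a difference of 0.01 ± 0.07. Over the 44 members with a size in both lines, 40 were more negative in 22Rv1. Across these genes the mean changes in 22Rv1 and PC-3 had a Pearson r of 0.57 and a Spearman rho of 0.49. That is a description over genes of the same arrays, which are not independent replicates.

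**Figure D5:**
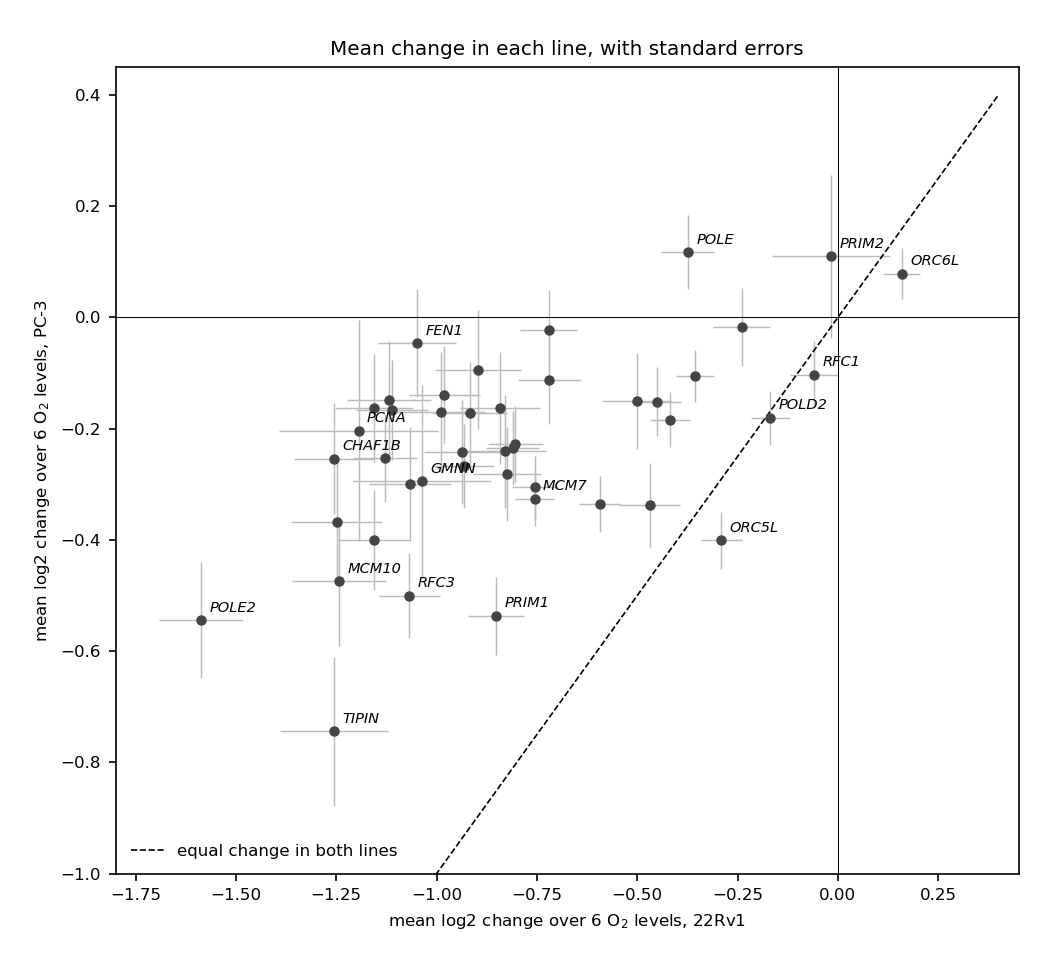
Mean log2 change over the 6 O2 levels in 22Rv1 (horizontal axis) and in PC-3 (vertical axis) for the 44 members with a size in both lines, with SE bars and a dashed line of equal change. Of these points 40 lie left of the dashed line, and ORC5L lies to its right.

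The lines also differed in normoxia, before oxygen was lowered. Of the 47 members 31 were higher and 7 lower in 22Rv1 than in PC-3, where 39.3% of all genes were higher and 32.5% lower. LIG1 differed most: the 12 normoxia arrays had 8.08 to 8.79 in 22Rv1 and 6.25 to 7.02 in PC-3, a difference of 1.84 ± 0.085 (SE, adjusted p = 8.27e-20). MCM2 was higher in 22Rv1 by 1.72 ± 0.08 and CDT1 by 1.5 ± 0.07. POLE2 ran the other way and was lower in 22Rv1 by 0.93 ± 0.10 on the log2 scale (adjusted p = 8.93e-10). ORC2L, ORC5L, PRIM2, POLD3, MCM3 and RPA2 were the others that were lower in 22Rv1. Among the normoxia groups of 1 line, 0 members differed by the limma F-test in 22Rv1 and 0 in PC-3, with 2 and 1 at an unadjusted p under 0.05.

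Other genes of replication that are not in the set were looked up from a list of 55 symbols, of which 38 were tested. In 22Rv1 25 of the 38 fell (65.8%) and 3 rose (7.89%), where 22.8% of all genes fell and 19.8% rose, and the median was -0.41. In PC-3 7 fell (18.4%) and 3 rose (7.89%), near the 13.3% and 10.7% of all genes, and the median was -0.02. With the replicate block 11 fell in PC-3, where 18% of all genes did. ASF1B, a histone chaperone, fell by 0.94 ± 0.06 in 22Rv1 (SE, adjusted p = 9.08e-14) and changed by -0.10 ± 0.06 in PC-3. WDHD1, which couples polymerase alpha to the helicase, fell by 0.93 ± 0.09 in 22Rv1 and by 0.46 ± 0.09 in PC-3. DSCC1, of an alternative clamp loader, fell by 0.92 ± 0.10 in 22Rv1 and by 0.39 ± 0.10 in PC-3. POLD4, the smallest subunit of polymerase delta, rose by 0.97 ± 0.12 in 22Rv1 (adjusted p = 2.16e-08), and its PC-3 change of 0.06 ± 0.12 did not pass. The helicase gene RECQL4 rose by 0.24 ± 0.08 in 22Rv1 and by 0.41 ± 0.08 in PC-3 (adjusted p = 0.00035). RNASEH2C, a subunit of the enzyme that removes ribonucleotides from DNA, changed by -0.14 ± 0.10 in 22Rv1 and rose by 0.38 ± 0.10 in PC-3 (adjusted p = 0.00371).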

How the data were processed

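RNA of 48 samples was measured on Illumina bead arrays. The authors deposited a table of bead intensity per probe, not normalized, with a detection p-value beside each value, and a second table of processed intensity; BeadStudio 3.1.3.0 is named per the submitters' processing notes. The normalization of the second table is not stated in any label or header. From the first table, intensities were background corrected and quantile normalized with neqc (limma 3.58.1, R 4.3.3, offset 16), taken to log2, and filtered to probes detected (p under 0.01) on 2 or more of 48 arrays. The negative controls were inferred from the detection p-values. Each symbol was represented by its brightest probe. limma was fitted over all 24 groups and 16438 symbols, with Benjamini-Hochberg adjustment over all of them. The members and gene lists were chosen with earlier results of these data known. Array ranges are given, by rule, for the member of each role group with the largest absolute mean change in each line, members that rose past the threshold, and members past the line difference whose mean changes had opposite signs; of the other replication genes, the 4 largest in either line are named.

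Column letters A and B were read as replicates 1 and 2, as 46 arrays carry the same label in both tables. Hypoxia and control arrays of the same level and number deviated together, with correlations between 0.18 and 0.447 (22Rv1) or 0.326 and 0.471 (PC-3). A fit with each such pair as a block, called the replicate block, was therefore run. It is given where it changes a named call or moves a count by over 1.5 times, and for the PC-3 mean. The number of arrays limits the precision of every value.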

Additional observations from a re-analysis of the deposited data

Results flagged for a closer look

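For 37 members the mean change in 22Rv1 differed from that in PC-3 by a limma test of the difference itself (22Rv1 minus PC-3, log2, adjusted p under 0.05 over all genes), and all 37 differences were negative. Within the MCM helicase the differences were -0.88 for MCM2, -0.84 for MCM3, -0.82 for MCM4, -0.95 for MCM5, -0.97 for MCM6 and -0.43 for MCM7. Within the CMG partners the differences were -0.70 for CDC45L, -0.88 for GINS2, -0.76 for GINS3, -0.77 for GINS4 and -0.77 for MCM10. Within licensing and the kinase the differences were -0.68 for ORC1L, -0.30 for ORC2L, -0.58 for CDT1, -0.74 for GMNN and -0.80 for CDC7. Within the polymerases and primase the differences were -0.70 for POLA1, -0.74 for POLA2, -0.31 for PRIM1, -0.35 for POLD3, -0.49 for POLE, -1.04 for POLE2 and -0.26 for POLE3. Within the clamp and its loader the differences were -0.99 for PCNA, -0.59 for RFC2, -0.57 for RFC3, -0.66 for RFC4 and -0.58 for RFC5. Within fragment processing and RPA the differences were -1.0 for FEN1, -0.54 for LIG1, -0.25 for RPA1, -0.45 for RPA2 and -0.24 for RPA3. Within fork protection and chromatin assembly the differences were -0.51 for TIPIN, -0.61 for TIMELESS, -0.99 for CHAF1A and -1.0 for CHAF1B.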

How the results depend on the processing

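The mean over levels was stable in its counts of decreases in 22Rv1, and 250 of 300 values of counts stayed within 1.5 times of those reported. With the replicate block the members that fell in PC-3 were 13 at 0%, 10 at 0.2%, 8 at 0.5% and 4 at 1%, with 3 for the trend and 11 of the other replication genes. In 22Rv1 the block gave 25 at 2%, 3 for 0.5% against 0.2% and 19 for 0.5% against 0%. With the controls of a line pooled, PC-3 had 19 at 0%, 9 at 0.2%, 5 at 1%, 1 at 2% and 5 for the trend. Of all 16438 genes, 1900, 1070, 411, 76 and 753 were lower there. In 22Rv1 pooling gave 30 at 2%, 21 for 0.5% against 0.2% and 23 for 0.5% against 0%. The matching counts over all genes were 899 lower, 1509 differing and 1956 lower. With each line fitted alone, PC-3 had 14 at 0%, 9 at 0.2%, 9 at 0.5%, 1 at 1% and 5 for the trend. Over all genes 1033, 518, 463, 76 and 246 were lower there. In 22Rv1 the fit of the line alone gave 1 at 2%, 10 for the trend and 4 for 0.5% against 0%. The matching counts over all genes were 37, 610 and 542. Without the 2 doubted arrays PC-3 had 8 at 0.2% (all genes 2.74%), 8 at 0.5% (2.17%), 1 at 1% (0.377%) and 3 for the trend (1.13%). In 22Rv1 17 members fell at 2% without them (all genes 2.12%). With their labels exchanged PC-3 had 13 for the mean (all genes 12%), 4 at 0% (2.93%), 1 at 0.2% (1.03%) and 0 at 0.5% (0.913%). In 22Rv1 the exchange gave 0 at 0.2% (0%), 0 at 2% (0.0608%), 2 for the trend (3.24%) and 5 for 0.5% against 0% (4.2%). The doubted arrays are of 22Rv1, so leaving out or exchanging them kept the PC-3 changes the same. The PC-3 counts moved through the spread, which the fit estimates over both lines, and the calls over all genes moved with them. Median centring gave 4 at 0%, 0 at 0.2% and 9 at 0.5% in PC-3, where 271, 34 and 811 of all genes were lower. The median over all genes was then -0.29 at 0.5% in PC-3. In 22Rv1 median centring gave 0 risen, 0 at 2%, 3 for the trend and 5 for 0.5% against 0%. Over all genes 2089 rose on the mean, 7 were lower at 2%, 124 had a falling trend and 350 were lower in that contrast. The authors' processed table gave 7 at 0.5% in PC-3, where 286 of all genes were lower. For PC-3 too, no background correction gave 5 at 0.2% (all genes 364). No filter gave 1 at 0.5% (198 of 31426 genes), and the mean of probes 2 at 0.5% (269). The mean of probes also turned ORC6L to -0.405 in 22Rv1, -0.066 in PC-3 and -0.340 for the line difference, and 0 members then rose in 22Rv1; the cause was not tested beyond the opposite probes described above.

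When 1 array was left out, the 22Rv1 mean kept 42 lower and 1 higher, with 25 to 31 at 0%, 7 to 35 at 0.2%, 35 to 39 at 0.5%, 29 to 33 at 1%, 1 to 4 at 2%, 0 to 0 at 5% and 16 to 29 for the trend. PC-3 had 19 to 21 for the mean, 4 to 6 at 0%, 0 to 2 at 0.2%, 0 to 2 at 0.5%, 0 at 1, 2 and 5% and 0 to 1 for the trend. The line difference had 34 to 37, the normoxia difference 30 to 32 higher and 6 to 7 lower, 0.5% against 0.2% 0 to 19 and 0.5% against 0% 3 to 17. Other replication genes had 23 to 27 lower in 22Rv1 and 6 to 9 in PC-3. The F-tests of the controls gave 0 throughout. Counts over all genes are not given for fits that left out 1 array. Averages without 0% (42 in 22Rv1, 18 in PC-3) or without 0.5% (40 in 22Rv1, 18 in PC-3) were added after the data were seen. Of all genes 20.4% in 22Rv1 and 9.1% in PC-3 fell without 0%, and 19.1% and 10.1% without 0.5%. Among single genes 589 values kept direction and call, 7 gained a call, 13 lost one and 3 turned, under alternatives other than leaving out an array. No slides are named, so slide was not run as a block. Dim probes limit GINS1, CDC6 and DBF4. Where other causes of a changed count were possible, the cause was not tested.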
